A study of Rattus norvegicus with 36 samples.

Results

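The parathyroid glands of the rat lie on or within the thyroid, so a dissected thyroid can carry parathyroid tissue or lack it. The 36 thyroid arrays were split by the probe of Pth, the gene of parathyroid hormone. An array counted as having Pth signal when the scanner's software called more than 1 of the 2 Pth spots well above background, which held for 24 of the 36 arrays. The other 12 made up the arrays without Pth signal. The sets were thus chosen by the measured signal of the Pth probe, so the Pth level is described and no difference in Pth between the sets was tested. Where other genes are set against the graded Pth level, those values share the probe that chose the sets.

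Each array held the RNA of the thyroid of 1 adult male Sprague Dawley rat, killed 24 h after an intravenous injection in saline. Groups of 4 rats received the radioiodine 131I, at 9, 88, 170 or 260 kBq in the lower range and at 340, 760, 1300 or 4700 kBq in the upper, and 4 mock-treated controls received 0 kBq. The labels name no transgene or deletion. The study compared irradiated with control thyroids, and the split by Pth cuts across its groups.

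Chief cells of the parathyroid secrete parathyroid hormone when the calcium-sensing receptor, encoded by Casr, meets low calcium. Gcm2 is the transcription factor that the parathyroid needs to form and to persist. Casr is also made by the calcitonin-producing C cells of the thyroid, and chromogranin A, encoded by Chga, is stored in the secretory granules of both cell types. Iyd encodes the enzyme of thyroid follicular cells that recycles iodide, and its level served here as a rough measure of follicular tissue on an array.

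The promoters below are shown because Pth chose the sets, Casr is the receptor through which parathyroid cells read calcium, and Cryba2, a crystallin gene, was 1 of the genes that followed Pth most closely. Each is the run of 250 bases before the transcription start, from RefSeq on build GRCr8, written 5′ to 3′ on the strand of the gene. Capitals mark matches on either strand to ATGCGGG, the first part of the binding site ATGCGGGT of GCM factors, or to the TATA box TATAAA. The sequences cover chr1:176946035-176946284 for Pth on the minus strand, chr11:77740364-77740613 for Casr on the plus strand and chr9:83899132-83899381 for Cryba2 on the minus strand.
Pth: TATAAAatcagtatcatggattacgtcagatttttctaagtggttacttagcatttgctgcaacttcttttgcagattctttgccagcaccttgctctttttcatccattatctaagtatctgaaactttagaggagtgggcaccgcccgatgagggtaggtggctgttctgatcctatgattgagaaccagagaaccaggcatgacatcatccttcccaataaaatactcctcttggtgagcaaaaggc
Casr: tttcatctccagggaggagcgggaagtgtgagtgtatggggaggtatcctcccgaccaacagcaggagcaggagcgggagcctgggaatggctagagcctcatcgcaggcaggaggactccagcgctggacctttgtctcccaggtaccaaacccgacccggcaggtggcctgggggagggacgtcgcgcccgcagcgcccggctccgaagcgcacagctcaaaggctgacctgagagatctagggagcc
Cryba2: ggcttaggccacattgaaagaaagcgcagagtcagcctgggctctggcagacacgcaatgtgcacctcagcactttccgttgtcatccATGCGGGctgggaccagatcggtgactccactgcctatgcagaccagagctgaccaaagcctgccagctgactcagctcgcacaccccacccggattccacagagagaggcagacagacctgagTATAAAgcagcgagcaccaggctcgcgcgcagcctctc

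Among the 33469 promoter sequences of that length, 1.10% held ATGCGGG, 0.218% held the longer ATGCGGGT that contains it, 1.59% held the cyclic AMP response element TGACGTCA and 12.9% held TATAAA. In Cryba2 the match to ATGCGGG began 162 bases and the match to TATAAA 38 bases before the start. In Pth the match to TATAAA began 250 bases before the start, at the edge of the window. Neither ATGCGGGT nor TGACGTCA was found in these 3 windows. These matches describe letters and not binding.

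Levels are given on the log2 scale relative to the 75th percentile of the same array, so that a level of 0 equals that percentile. Levels of different probes cannot be compared with each other. On arrays with Pth signal the Pth level had a lowest value of -5.55, a median of 6.19 and a highest value of 6.95. On arrays without it the lowest value was -8.68, the median -7.81 and the highest -6.46. Most arrays with Pth signal were far from the limit, since 16 of the 24 had a Pth level of 4 or more.

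The array just inside the limit was that of rat 3 at 9 kBq, with a Pth level of -5.55 and a mean signal of 69.5 intensity units. The array just outside it was that of rat 4 at 260 kBq, with a level of -6.46 and a mean signal of 22.8. Control rat 1, at -6.80, had 1 of its 2 Pth spots called and was therefore counted as without Pth signal. With 2 Pth spots on each array, the rule amounts to both spots being called.

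Arrays with Pth signal occurred in all 9 groups. They numbered 2 of 4 in the controls, 2 at 9 kBq, 3 at 88 kBq, 3 at 170 kBq, 2 at 260 kBq, 2 at 340 kBq, 3 at 760 kBq, 3 at 1300 kBq and 4 at 4700 kBq. Every group other than that of 4700 kBq thus held both kinds of array. The Pth level at 4700 kBq was 6.55, 6.43, 2.12 and 6.45 in rats 1 to 4, and in the controls it was -6.80, 6.46, -7.81 and 4.04. In the controls alone, Pth ran from the range of arrays without signal to nearly the highest levels of the series.

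Iyd, the covariate of the comparison, differed between the sets and is given as a description. Iyd fell into separate ranges, with 18 arrays between -0.26 and 1.45, called high here, and 18 at -3.28 or lower, called low. Of the 24 arrays with Pth signal, 17 had high and 7 had low Iyd. Of the 12 without, only control rat 1, at 0.77, had high Iyd. The mean Iyd level was -1.36 ± 3.35 (SD, n = 24) with Pth signal and -6.77 ± 2.54 (SD, n = 12) without, a difference of 5.40. Fewer cells of a type and less RNA per cell cannot be told apart in such whole-tissue samples.

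**Figure D1:**
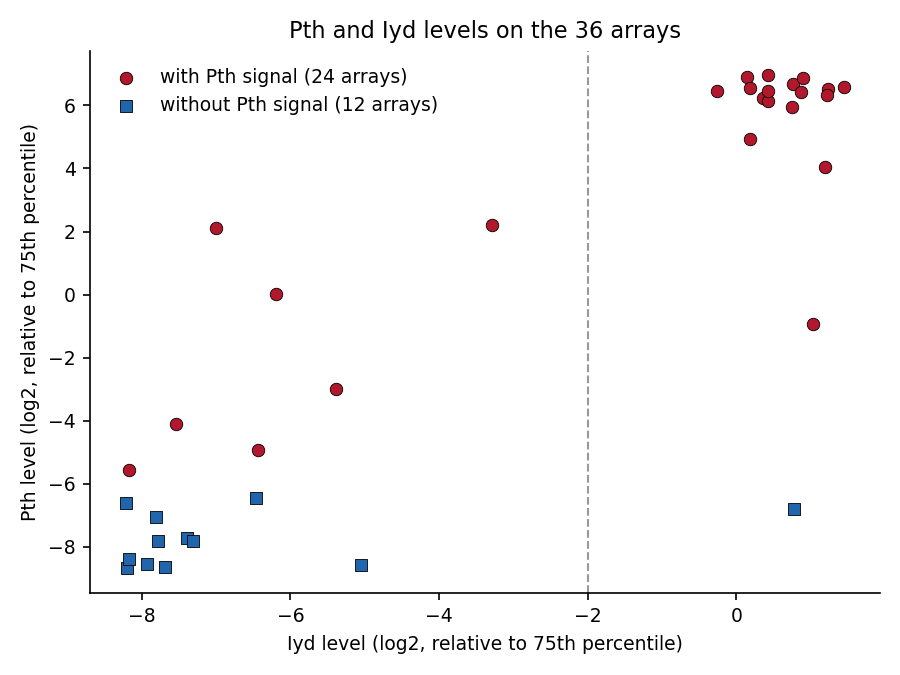
Pth level (vertical axis) against Iyd level (horizontal axis), both log2 relative to the array's 75th percentile, with 1 point per array. Red circles are the 24 arrays with Pth signal and blue squares the 12 without. The dashed line at -2 separates 18 arrays of high Iyd from 18 of low Iyd, and 17 of the high ones carry Pth signal.

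Some arrays departed from this pattern. Rat 2 at 260 kBq had an Iyd level of 1.03 but a Pth level of only -0.93. Rat 1 at 760 kBq, rat 3 at 4700 kBq and rat 3 at 170 kBq had Pth levels of 2.22, 2.12 and 0.03 with low Iyd levels of -3.28, -7.00 and -6.19. Pth at or above the 75th percentile thus occurred on 3 arrays of low Iyd.

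Gcm2 was well above background on 14 of the 24 arrays with Pth signal and on none of the 12 without. Its level had a lowest value of -9.26, a median of -3.98 and a highest value of 0.47 with Pth signal, against -8.88, -8.43 and -6.79 without. The sets overlapped, with 14 of the arrays with Pth signal above the highest value without it and 10 at or below that value. The mean was 3.59 higher with Pth signal (permutation test, two-sided, p = 0.00104, adjusted over 6 tests p = 0.00208). Set against the lowest signal that counts as above background, the mean over the arrays with Pth signal was at least 3.38-fold higher. That mean takes in the arrays on which Gcm2 was below background, so the bound does not hold for each array. All 14 arrays with Gcm2 above background also had high Iyd.

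Casr was detected on all 24 arrays with Pth signal and on 11 of 12 without. Its level ran from -5.32 through a median of 2.44 to 4.87 with Pth signal, and from -6.09 through -5.21 to 2.18 without. The mean difference was 5.60 (permutation test, p = 4e-05, adjusted p = 0.00024). The highest value without Pth signal belonged to control rat 1, the array with high Iyd and a high level of Calca, the calcitonin gene of C cells, at 6.90. Within the 5 slides, each of which held both sets, the mean difference ranged from 2.23 to 5.0 for Gcm2 and from 4.44 to 6.60 for Casr.

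Among the 18 arrays of low Iyd, the means of Gcm2 were -8.28 ± 0.43 (SD, n = 7) with Pth signal and -8.31 ± 0.42 (SD, n = 11) without, a difference of 0.04 (exact permutation test, two-sided, p = 0.851, adjusted p = 0.851). Those of Casr were -4.12 ± 1.13 (SD, n = 7) and -5.32 ± 0.55 (SD, n = 11), a difference of 1.20 (exact permutation test, p = 0.00924, adjusted p = 0.0111). Gcm2 was below background on all 18 of these arrays, so the arrays of low Iyd gave no measure of it. Casr was above the highest value without Pth signal on 4 of the 7. The 7 and 11 arrays were not matched in follicular tissue, since the median of Tg was 4.11 with and -0.77 without Pth signal. Over all probes, 0 were called between these 7 and 11 arrays, while 372 were higher (1.23%) and 252 lower (0.83%) at an unadjusted p under 0.05.

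**Figure D2:**
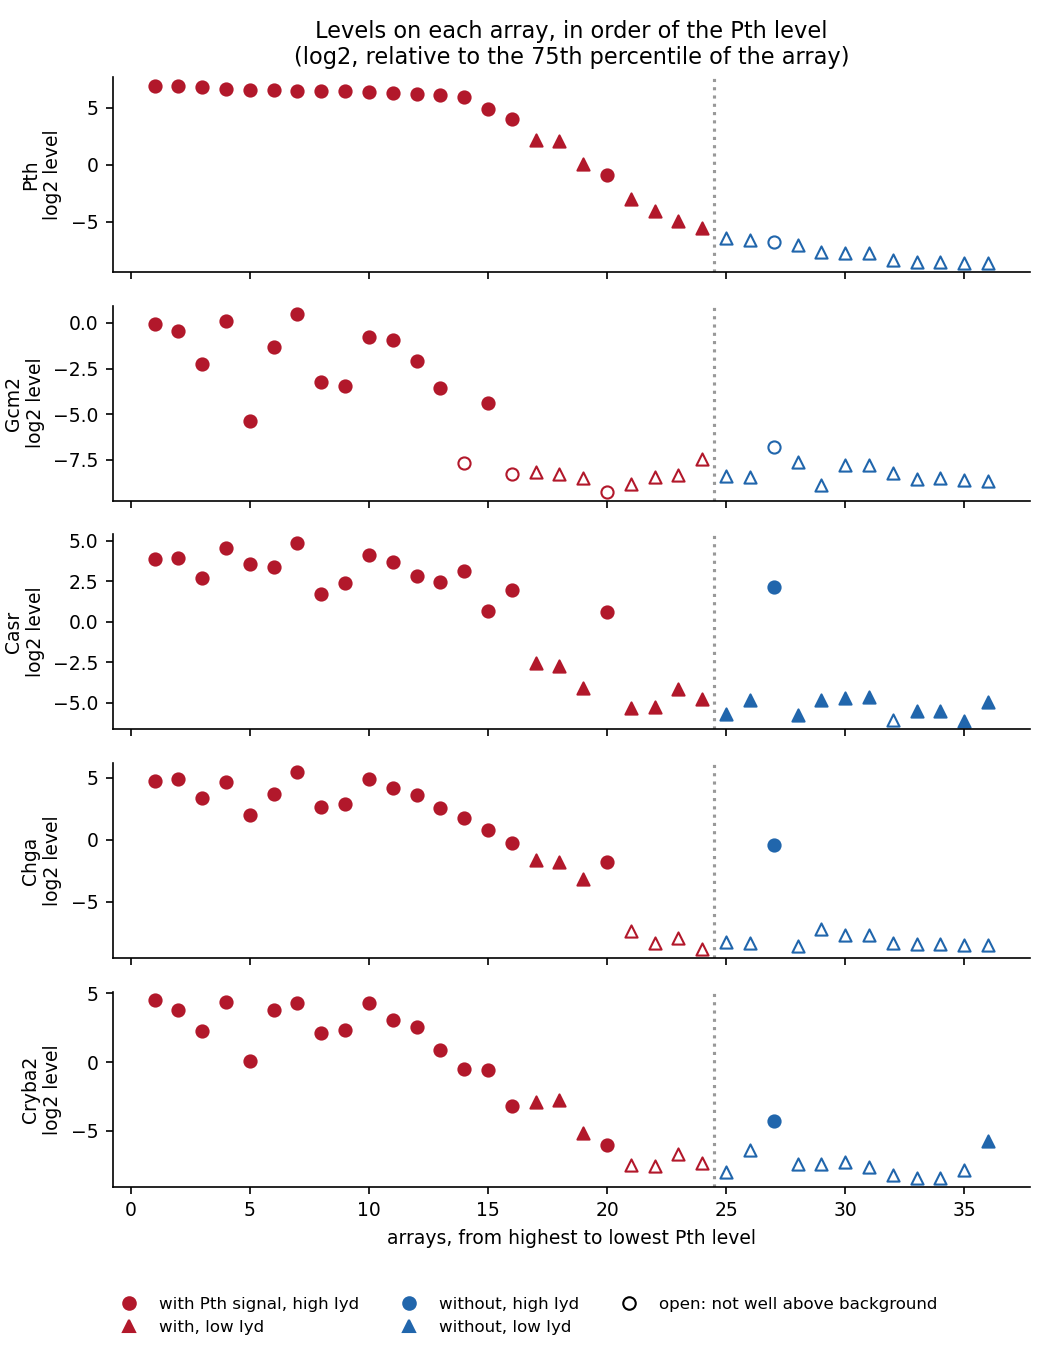
Levels of Pth, Gcm2, Casr, Chga and Cryba2 (vertical axes, log2 relative to the array's 75th percentile) on each of the 36 arrays, ordered by Pth from left to right. Red marks are arrays with and blue marks arrays without Pth signal, circles are high and triangles low Iyd, open marks are not well above background, and the dotted line separates the sets. Gcm2 is above background on 14 of the first 15 arrays and nowhere else, while Casr and Chga are also high on the single array of high Iyd without Pth signal.

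The sets were compared over 30365 probes with the Iyd level as a covariate. A probe was called when its limma adjusted p was below 0.01 with a change of 1.5-fold or more, and 0 were higher (0%) and 0 lower (0%). The smallest adjusted p was 0.438. At an unadjusted p under 0.05, 1385 probes were higher (4.56%) and 397 lower (1.31%). This split depended on the scaling, since quantile normalization gave 813 higher of 1529 and normexp background correction 252 of 734. Of the 1385 higher probes, 38.8% were well above background on fewer than 18 arrays, against 14.9% of the 397 lower and 29.9% of all.

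In that fit Gcm2 was 0.58 (SE 1.06) and Casr 0.55 (SE 0.54) higher with Pth signal, with limma adjusted p-values of 0.982 and 0.927. The set and the Iyd level shared 41.5% of their variance, and the median SE over probes was 0.26 with Iyd in the fit and 0.22 without it. With slide as a block the differences were 0.27 for Gcm2 and -0.02 for Casr, and with activity group as a term they were -0.70 and -0.13, none of them called. A value near 0 with this error does not show that the sets were alike. Among the 18 arrays of high Iyd, where control rat 1 was the single array without Pth signal, 0 probes were called higher and 14 lower (0.0461%). At an unadjusted p under 0.05, 1008 were higher there (3.32%) and 253 lower (0.833%), and these values rest on that array.

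Without the covariate the same comparison called 1188 probes higher (3.91%) and 610 lower (2.01%). The median size of the difference over these 1798 probes was 1.28 on the log2 scale without Iyd and 0.17 with it, and 1160 kept their direction. Thyroid follicular genes led the higher ones, with 11 of the 15 listed genes called higher and none lower. Tg, which encodes the hormone precursor thyroglobulin, was 5.34 higher, and with Iyd in the fit it differed by 1.12 without being called.

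Of the 7 listed C cell genes, 4 were called higher without Iyd. Calca was 7.98 higher, Calcb, a calcitonin-related gene, 2.39, Gfra4, a receptor for a neurotrophic factor, 2.50, and Ret, its signalling partner, 1.47 higher. Sst, the gene of somatostatin, was well above background on 14 of 24 arrays with and on none without Pth signal. Of these 7 genes none was called with Iyd in the fit, where Calca differed by 0.24. The listed markers of C cells and of follicular cells moved with the sets, and their part in the Gcm2 and Casr differences was not tested.

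The lower genes without Iyd included 6 of the 7 cartilage genes with a probe. Comp, a protein of the cartilage matrix, differed by -2.90 and Acan, the core protein of aggrecan, by -3.35 on the log2 scale. The 7 genes of squamous epithelium had differences between -5.22 and -3.25 and none was called. Of the 6 genes of Schwann cells and nerve, S100b at -1.19 and Gap43, a growth protein of axons, at -1.36 were called lower. Tbx1, a transcription factor of the pharyngeal pouches that is also active in muscle, was called lower with a difference of -2.10.

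**Figure D3:**
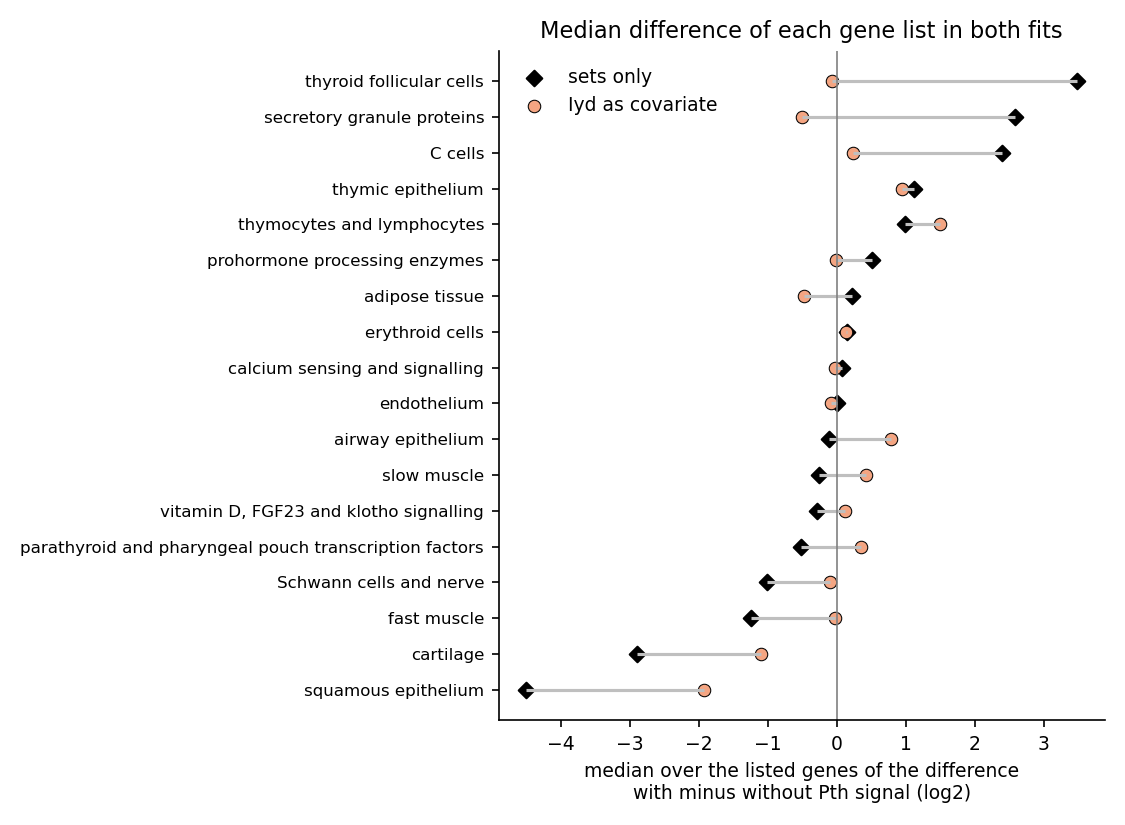
Median difference over the genes of each list (horizontal axis, log2, with minus without Pth signal), for the comparison of the sets alone (black diamonds) and with the Iyd level as a covariate (orange circles). The follicular list moves from 3.49 to -0.07 and the cartilage list from -2.90 to -1.11.

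The genes of the parathyroid lists were followed in the same fits. Of the 7 transcription factors of the parathyroid and pharyngeal pouch with a probe, none was called with Iyd, with a median difference of 0.36 beside 0.05 over all probes. Without Iyd the median difference of these 7 was -0.52 beside -0.05 over all probes, and 4 of them were below 0. In that fit Gata3, a factor that acts with Gcm2 in parathyroid development, was called 2.75 higher, and Tbx1 was called lower at -2.10. Of the 7 genes of vitamin D, FGF23 and klotho signalling, none was called higher in either fit, and without Iyd Rxra, the partner of the vitamin D receptor, at -0.79 and Fgfr1, a receptor for FGF23, at -0.77 were called lower. Kl, the klotho coreceptor for FGF23, was above background on 13 of 24 arrays with and on none without Pth signal. Its mean over the 24 arrays was at least 2.08-fold higher, a bound that does not hold for each array.

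Genes of hormone storage moved unevenly. Without Iyd, 3 of the 7 granule proteins with a probe were called higher, namely Chga by 7.96, Scg5, a chaperone of prohormone convertase 2, by 3.93 and Scg3, a granule protein that binds chromogranin A, by 2.58. Chgb differed by 3.21, Scg2 by 0.84, Snap25, a protein of vesicle fusion, by 0.68 and Vgf by -0.09, and these 4 were not called. Of the 6 prohormone processing enzymes, Pcsk2, prohormone convertase 2, was called higher by 3.45, and it was above background on 20 of 24 arrays with and on 1 without Pth signal. Furin, the protease that can cleave the parathyroid hormone precursor, differed by 0.59 and was not called. With Iyd in the fit none of these 13 genes was called, and the differences were 1.94 for Chga, -0.50 for Scg5, -0.32 for Scg3 and -0.44 for Pcsk2.

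Of the 7 genes of calcium sensing, Casr was the only one called without Iyd, and none was called with it. Gna11 at 0.07 and Gnaq at -0.02, the G proteins that carry the signal of the receptor, and Ap2s1, an adaptor of its uptake, at -0.29 were not called. Calb1, a calcium-binding protein, was not well above background on any array.

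The Pth level itself, in place of the sets, was fitted as a continuous term with Iyd as covariate, and differences were scaled to the mean Pth difference between the sets, 11.3 on the log2 scale. The same probe chose the sets, so this fit is an alternative form of the comparison of the sets and not independent of it. Of 30365 probes, 2 were called, both higher (0.00659%), and 0 lower. At an unadjusted p under 0.05, 1626 were higher (5.35%) and 356 lower (1.17%). Chga had a difference of 5.52 (SE 0.77, limma adjusted p = 0.000624). Cryba2 had 6.78 (SE 0.997, limma adjusted p = 0.00102). Gcm2 at 3.69, Kl at 3.02, Gata3 at 2.92 and Casr at 2.08 were not called.

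Chga was well above background on 20 of the 24 arrays with Pth signal and on 1 without, control rat 1. Its level ran from -8.83 through a median of 2.27 to 5.47 with Pth signal, and from -8.57 through -8.32 to -0.41 without. Cryba2 was above background on 20 and 2 arrays, and its level ran from -7.59 through 0.50 to 4.49 and from -8.42 through -7.54 to -4.27. On the 3 arrays of low Iyd with the highest Pth levels both genes were above background, with Chga at -1.63, -1.78 and -3.16 and Cryba2 at -2.88, -2.78 and -5.14, in the order of falling Pth. On the other 4 low-Iyd arrays with Pth signal neither gene was. With the arrays divided at a Pth level of 0, a division of the same signal made after the data were seen, 1 probe passed (0.00329%), that of Chga, which adds no independent support. The calls on the graded level rested in part on rat 2 at 260 kBq, without which Cryba2 was at 5.91 (limma adjusted p = 0.0140) and was no longer called, and with activity group as a term neither gene was called.

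Because the arrays with Pth signal fell into separate Iyd ranges, relations among them were taken within each range. The tests below concern the order of Gcm2 and Casr within arrays that the Pth call had already picked. Over the 17 arrays of high Iyd, Pearson's r with the Pth level was 0.718 for Gcm2 (permutation p = 0.00035, adjusted p = 0.000933) and 0.662 for Casr (permutation p = 0.00094, adjusted p = 0.00188). Spearman's rho was 0.698 for Gcm2 (permutation p = 0.00251) and 0.625 for Casr (permutation p = 0.00868). Without the 2 arrays farthest from the median Pth level, r was 0.530 and 0.662. The 7 arrays of low Iyd gave r of -0.233 for Gcm2 (exact permutation p = 0.666) and 0.83 for Casr (exact permutation p = 0.0274, adjusted p = 0.0548), and the latter fell to 0.300 without the 2 farthest arrays. Spearman's rho at low Iyd was -0.0714 for Gcm2 (exact permutation p = 0.906) and 0.679 for Casr (exact permutation p = 0.110). Chga and Cryba2, which the fit on the Pth level had picked out, had r of 0.815 and 0.860 at high Iyd and of 0.986 and 0.935 at low Iyd, given as a description. Adjusted p-values were taken within each range, over the 8 tests of Pearson's r and Spearman's rho for these 4 genes. The tests of Chga and Cryba2 were among those 8. Because these 2 genes had been picked for following Pth, their small p-values can make the adjusted p-values of Gcm2 and Casr too small.

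Pth was close to its highest level on most arrays of high Iyd, while Gcm2 still ranged from -9.26 to 0.47 there. Gcm2 did not choose the sets, so its level was used as another graded measure, although it was below background on 3 of these 17 arrays. Of 30364 probes, 72 were called higher with higher Gcm2 (0.237%) and 0 lower (0%) over these 17 arrays (limma, adjusted p under 0.01 and a change of at least 1.5-fold per SD of Gcm2, which was 3.03). The 72 probes included 48 genes with a symbol. Without any 1 array between 55 and 77 probes were called, and with Iyd as a covariate 84. Activity group was not a term in the fits on Gcm2, so differences between the activity groups were not separated from changes with Gcm2.

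Genes of parathyroid function were among them. Kl rose by 2.06 per SD of Gcm2 (SE 0.12, limma adjusted p = 2.804e-08), with levels from -7.78 through a median of -3.86 to -1.40 over the 17 arrays. Gata3 rose by 1.88 (SE 0.21, limma adjusted p = 6.657e-05). Vdr, the vitamin D receptor, rose by 0.996 (SE 0.16, limma adjusted p = 0.003426), and it was called in 12 of the 17 fits that left out 1 array, so that its call rested on single arrays. It was not called either on the arrays with Gcm2 above background alone. Chga rose by 1.88 (SE 0.16). Casr changed by 0.89 (SE 0.21, limma adjusted p = 0.1134) and was not called, but with the Iyd level as a covariate it was called, at 1.02 (SE 0.17, limma adjusted p = 0.00882). Its adjusted p under the other 3 settings ranged from 0.05785 to 0.1714.

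By list, the Gcm2 level was followed by 2 of the 7 genes of vitamin D, FGF23 and klotho signalling and by 1 of the 7 granule proteins. None of the 7 calcium sensing genes, of the 6 prohormone processing enzymes, of the 7 C cell genes or of the 15 follicular genes was called, and their median r with Gcm2 was -0.09, -0.09, -0.18 and -0.30, against -0.04 over all probes. Calca stayed between 3.93 and 7.70 on these arrays, with a change of -0.21 per SD of Gcm2 (SE 0.20) that was not called. Chgb, chromogranin B, had -0.24 (SE 0.33) and was not called.

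**Figure D4:**
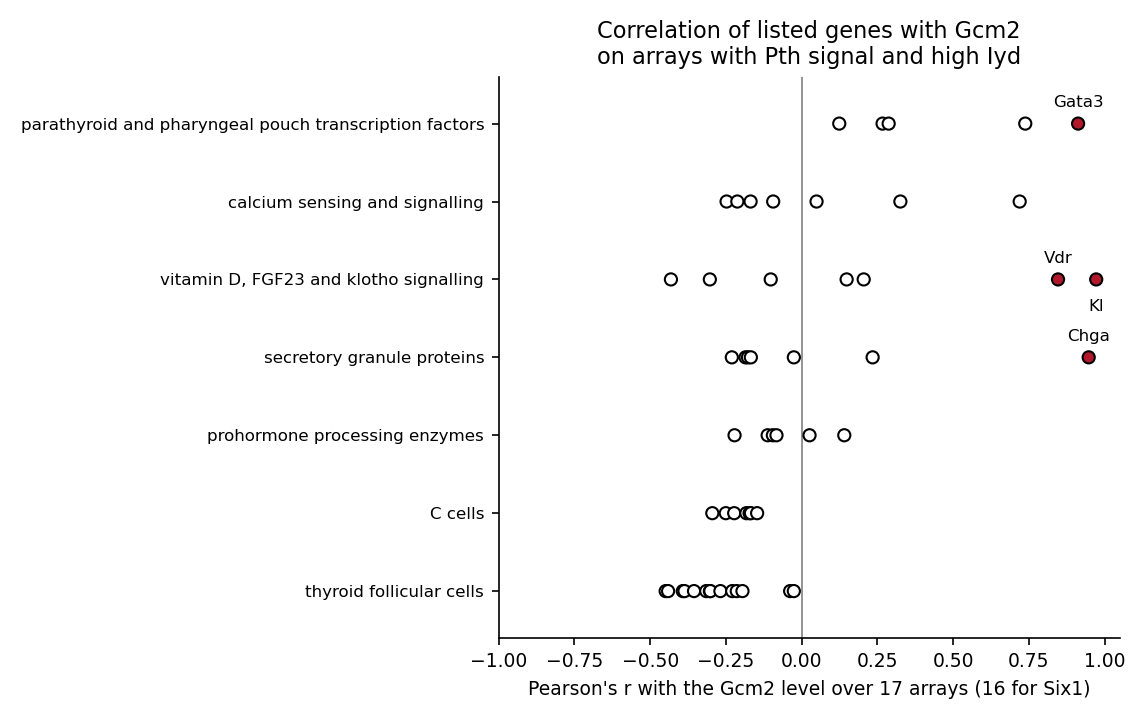
Pearson's r between each listed gene and Gcm2 (horizontal axis) over the 17 arrays with Pth signal and high Iyd, by list (vertical axis). Filled red points are genes called in the limma fit on Gcm2, and open points are the rest. The called genes shown are Gata3, Vdr, Kl and Chga, the 7 C cell genes all lie below 0, and genes not reported here are left out.

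The genes with the largest changes per SD of Gcm2 lay outside these lists. Rhcg, which encodes an ammonia transporter, rose by 2.96 (SE 0.10, limma adjusted p = 7.262e-12), with levels from -6.77 through -0.05 to 2.72. Alox12e, a lipoxygenase gene, rose by 2.80 (SE 0.16) and Cryba2 by 2.79 (SE 0.22). Gsta2, a glutathione transferase gene, rose by 2.56, Pcyt1b, an enzyme of phosphatidylcholine synthesis, by 2.38, and Adgrg2, an adhesion G protein-coupled receptor, by 2.29. Cr2, the complement receptor 2, rose by 2.25, A4galt, a galactosyltransferase gene, by 2.15, the cytokine gene Il10 by 1.92 and Tnmd, tenomodulin, by 1.89. Fam151a at 1.84 and Rapgef5, an exchange factor for small GTPases, at 1.68 complete the 15 genes of largest change together with Kl, Gata3 and Chga.

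**Figure D5:**
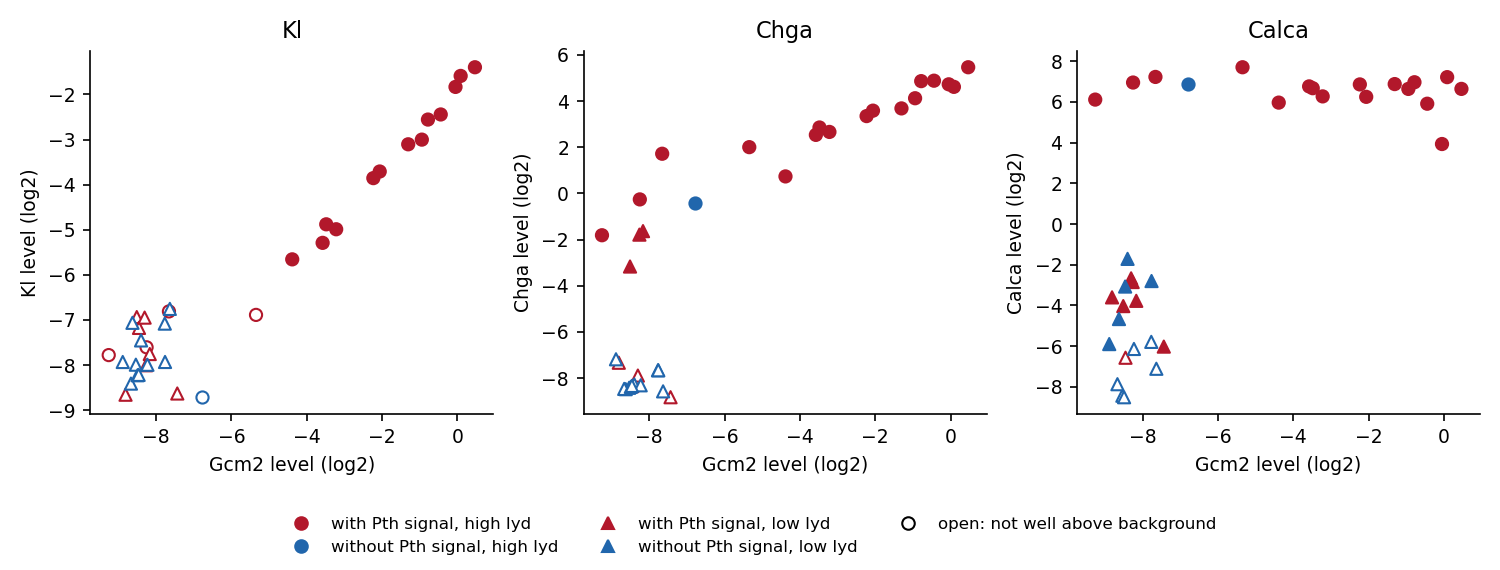
Levels of Kl, Chga and Calca (vertical axes) against Gcm2 (horizontal axes), all log2 relative to the array's 75th percentile, for the 36 arrays. Colours and shapes are as in the plot of single arrays, and open marks show that the gene on the vertical axis was not well above background. Kl and Chga rise with Gcm2 among the arrays of high Iyd with Pth signal, and Calca stays between 3.93 and 7.70 there.

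The 10 genes with the smallest unadjusted p in each direction of the comparison of the sets were not called either. The higher ones were led by Or10p22, an olfactory receptor gene, at 1.39, which was above background on 2 of 24 arrays with and on none without Pth signal, and by Psg19, a gene of the pregnancy-specific glycoproteins, at 1.33. Cmtm2a, Or1f33, Spata31f3, Vom1r72, Prss40, Slc36a3, Cldn34e and Adgrf3 followed, with differences between 0.88 and 2.05. Or1f33 and Vom1r72 were not above background on any array. Of the 24 arrays with Pth signal, Cmtm2a and Slc36a3 were above it on 1 each and Cldn34e on 2. Spata31f3 was above it on 5, Prss40 on 6 and Adgrf3 on 11. The lower ones were Prodh, Ccn2, Mug1l1, Plvap, Trappc6a, Rflna, Capn6, P2rx2, Lrp4 and Cct8l2, with differences between -2.55 and -0.41. Plvap, a protein of endothelial fenestrae, was -0.73 with Iyd and 1.52 without it.

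Across the arrays, the 75th percentile of the processed signal lay between 1564 and 4288 intensity units, and saturation was not seen on any spot. Probes well above background made up a mean of 71.4% of all probes with and 67.4% without Pth signal, a difference of 4.02 percentage points (permutation test, p = 0.00668, adjusted p = 0.01). With that share as a covariate beside Iyd, no probe was called in either direction. Of the markers of other cell types, the summed level of the thymocyte and lymphocyte genes ran from -3.50 to 6.36 with and from -3.18 to -2.01 without Pth signal, and none of the 9 was called. Their part in the results was not tested.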

How the data were processed

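One array per rat (Agilent, Cy3) was analysed. The intensities deposited by the authors are the processed signals of Feature Extraction 10.7.3.1, after background and spatial detrending, and the flags deposited by the authors with them state whether a spot is well above background or an outlier. The authors' matrix holds quantile normalized intensities, and Partek is named in the submitters' processing notes. Control and outlier spots were left out, log2 signals were scaled by subtracting the array's 75th percentile, and spots of a probe were averaged (30367 probes, of which 99 lacked a value on at least 1 array and were fitted on the others). Symbols came from RefSeq accessions for 17998 probes.

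The sets were compared with limma 3.58.1 in R 4.3.3, over all arrays, with the Iyd level as covariate, leaving out the probes of Pth and of the covariate. The limits, adjusted p under 0.01 and 1.5-fold, are those of the study's methods. Permutation tests used 100000 permutations where exact enumeration was too long, in Python 3.11.15 with scipy 1.17.1. The fits were tested on simulated data. The Iyd ranges, divided at -2, and the fits on Pth and Gcm2 levels within them were chosen after the data were seen. The arrays, the 19 gene lists and the tests were chosen with earlier results of these data known. Genes named are members of the lists, and otherwise the called genes with a symbol of largest change, up to 15 in each direction, or, where fewer were called, those with the smallest p up to 10, each by its probe of smallest p. Cryba2 was named after its values were seen. Of several probes of a listed gene, that of highest mean level was used. Each array is a separate animal, and precision is limited by how many arrays there are. Some listed genes are not reported here.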

Additional observations from a re-analysis of the deposited data

Results flagged for a closer look

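The values of Pth, Gcm2, Casr, Chga and Cryba2 were screened within each group of 4 rats, and within the 7 arrays of low Iyd with Pth signal, for a highest or lowest array far from the others by Dixon's criterion. Of 50 combinations 8 met it. The chance rate of about 1 in 20 is for independent combinations. Here the genes were screened on the same rats, so the 8 cannot be set against that rate.

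At 9 kBq, rat 2 stood above the other 3 rats with Casr at 2.83, Chga at 3.59 and Cryba2 at 2.58, the nearest values being -4.78, -8.42 and -7.30. It was the only rat of that group with high Iyd. At 340 kBq, rat 4 stood apart with Gcm2 at -4.38 and Chga at 0.74, against nearest values of -8.23 and -8.31, and it too was alone in its group with high Iyd. It also had the highest share of probes well above background of all arrays, 88.5%. At 260 kBq, rat 1 stood apart with Gcm2 at -0.94, the next being -8.40. Rat 3 at 4700 kBq was lowest for Pth, at 2.12 against 6.43 for the next, and control rat 3 was lowest for Casr, at -4.61 against 1.74 for the next. Both of these arrays had low Iyd.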

How the results depend on the processing

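The count of called probes with Iyd as covariate was 0 in each direction for every left-out array, under quantile, median and normexp processing, with the authors' matrix, with slide or scan day as a block and in the low-Iyd arrays. Without the covariate it was 1188 higher and 610 lower, with the continuous Pth level 2 higher, with that level and no covariate 3100 higher and 3519 lower, with the split at the 75th percentile 1 higher, and in the high-Iyd arrays, where 1 array lacked Pth signal, 14 lower. Gcm2 was 4.60 with the continuous level and no covariate, and Casr 5.60 without the covariate and 6.48 with both changes. Without each array in turn Gcm2 ranged from -0.19 to 0.82 and Casr from 0.25 to 0.84.

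Probes that followed the Pth level numbered 2, but 0 with activity group as a term, 0 with 6 tissue lists as covariates, 1 in the low-Iyd arrays, 0 in the high-Iyd arrays, 6619 with no Iyd covariate, and 1 to 3 without each array in turn. The correlation of Gcm2 with Pth was -0.233 in the low-Iyd arrays, where Gcm2 was not above background. Probes that followed Gcm2 numbered 55 to 77, and listed genes 4 to 5, without each array in turn, 84 and 6 with Iyd as a covariate, where Casr was added, and 63 and 4 on the arrays with Gcm2 above background. Activity group was not tried as a term in the fits on Gcm2. The causes were not tested.

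The rat numbers did not pair the arrays: over 144 pairs of arrays sharing a number the median correlation of deviations was -0.03, and 8 of 36 arrays correlated best with their own number. With the replicate number as a block, 0 probes were called, Gcm2 was at 0.34 and Casr at 0.34, and 2 probes followed the Pth level.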
